A study of Caenorhabditis elegans with 15 samples.

Results

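Of the 15 whole-animal mRNA libraries, 4 held far fewer transcripts of the *msp* genes, which encode the major sperm proteins, than the other libraries of their strain. They were wt replicate 3, *gas-1* replicate 2 and *age-1; gas-1* replicates 2 and 5, and are called sperm-poor libraries here. The other 11 libraries were 4 of wt, 4 of *gas-1* and 3 of *age-1; gas-1*. The animals were *C. elegans* of the wild-type strain N2 (wt), of *gas-1* mutants that carry the fc21 allele, and of animals with both *gas-1(fc21)* and *age-1(hx546)* (the double mutant). All populations were synchronised with hypochlorite and raised at 20 °C on OP50 bacteria, none with a treatment in its labels, and each sample is labelled as stage L4. *gas-1* encodes a subunit of mitochondrial complex I and *age-1* the catalytic subunit of the kinase of insulin/IGF signaling, and both alleles lower the function of their gene in the whole animal. The grouping was made from the measured RNA itself and not from any label, so the comparison has no treatment behind it. A gene that passed the threshold below is described as one that followed the grouping, and passing is no test of a cause.

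A hermaphrodite of *C. elegans* makes sperm in its germline during the last larval stage and then switches for life to oocytes. Oocytes are loaded with maternal RNA and with yolk proteins from the intestine, are fertilised with the stored sperm, and are kept in the uterus for the first divisions. In the same window the epidermis secretes the adult cuticle, whose collagens are made in a burst before the final moult. Sperm, cuticle, oocyte and embryo transcripts therefore mark successive steps of development in a whole animal.

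The *msp* genes, 31 in the tables and 18 above the filter on low values, were used to choose the libraries, and their levels are given as a description only. Summed over the 31 genes, wt replicate 3 held 5.798 FPKM (fragments per kilobase of transcript, corrected for depth), against 342.7, 362.4, 371.8 and 159.0 in wt replicates 1, 2, 4 and 5. In *gas-1* mutants the sum was 18.04 in replicate 2 and 65.6, 69.9, 97.3 and 72.4 in replicates 1, 3, 4 and 5. In the double mutant it was 15.2 and 19.8 in replicates 2 and 5 and 133.2, 100.6 and 143.5 in replicates 1, 3 and 4. Across strains, the highest sum inside the grouping was that of *age-1; gas-1* replicate 5, and the lowest outside it was that of *gas-1* replicate 1. The grouping was made within strain, where wt replicate 5 lay between the sperm-poor library and the rest of its own strain. *msp* genes are near-identical copies and their single values are uncertain.

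**Figure D1:**
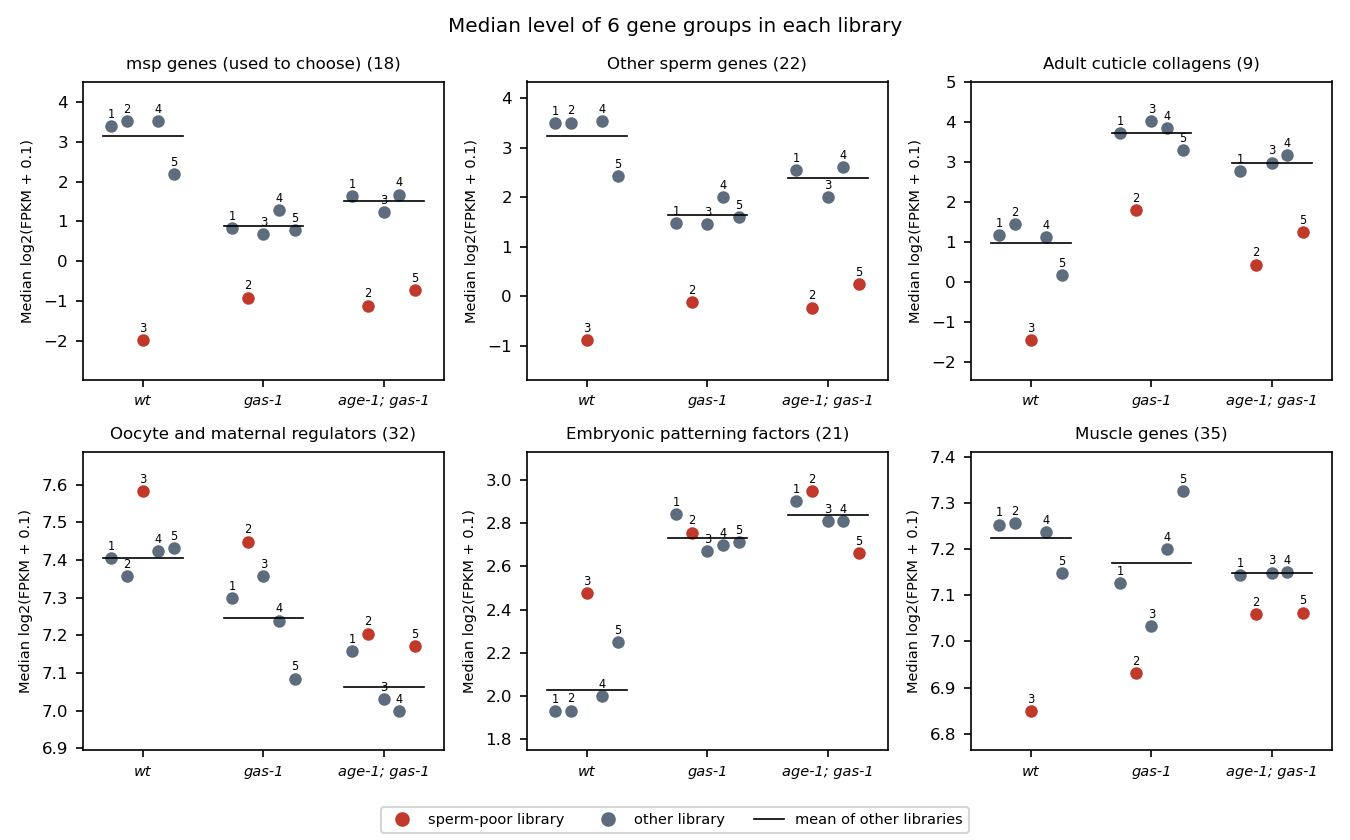
Median log2(FPKM + 0.1) of 6 gene groups in each of 15 libraries, with the number of genes in parentheses, the replicate number above each point, sperm-poor libraries in red and a line at the mean of the strain's other libraries. Red points lie below every other point of their strain for *msp* genes, other sperm genes, adult cuticle collagens and muscle genes, and above every other point for oocyte regulators. For embryonic patterning factors the red points lie apart from the others in wt alone.

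In depth and in the number of genes without reads, the sperm-poor libraries were not separate from the others in every strain. FPKM summed to 658126 to 702623 per library and read totals are unknown. Within each strain this sum was highest in the sperm-poor libraries, and genes at 1 FPKM or more were fewest. Such genes numbered 10016 in the sperm-poor wt library against 10513 to 10696, and 10955 against 11219 to 11439 in *gas-1*. In the double mutant they numbered 11223 and 11176 against 11498 to 11687. The 10 most abundant genes also took a larger share of the sum in the sperm-poor libraries of each strain. Genes listed at 0 numbered 2829 in the sperm-poor wt library and 2176 to 2279 in its strain's other libraries, 2188 against 1665 to 2012 in *gas-1*, and 1762 and 1857 against 1600 to 2010 in the double mutant. Low values are spaced more widely in a shallow library, and by this rough measure wt replicate 3 and *gas-1* replicate 2 were the shallowest of their strains whereas the double mutant's sperm-poor libraries were not; the part of depth in the results was not tested. After removal of strain means, the first principal component held 75.2% of the variance and placed wt replicate 3 at 77.3, *gas-1* replicate 2 at 32.0, *age-1; gas-1* replicates 2 and 5 at 36.2 and 29.7, wt replicate 5 at 1.94 and the other 10 libraries from -27.98 to -4.22. None of 14 male-soma and seminal-fluid genes reached the filter on low values. Adult and late-larval transcripts were abundant in all 15 libraries whose labels give L4, with the adult-specific collagen gene *col-19* at 535 to 973 FPKM and the yolk gene *vit-2* at 27590 to 98840 FPKM. The paper's methods name young adults where they describe RNA extraction, for PCR assays, and its sequencing methods name no stage of their own and refer to an extraction given elsewhere.

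Across the transcriptome, sperm-poor libraries had lower sperm, cuticle and muscle transcripts and slightly higher oocyte, eggshell and cell-cycle transcripts than other libraries of their strain. Embryonic patterning factors were higher unevenly, with median log2 differences of 0.83 in wt, 0.15 in *gas-1* and 0.36 in the double mutant. Of 11760 genes tested outside the *msp*, *msd*, *ssp* and *spe* families, 1700 were higher (14.5% of genes tested) and 2139 were lower (18.2%) at a 5% false discovery rate with limma, in a fit with strain as covariate. Differences are log2(FPKM + 0.1) in sperm-poor minus other libraries, and understate the change of genes with low levels. The lower side went much further, with 549 genes at least 2-fold lower (4.67%) and 25 at least 2-fold higher (0.213%). Genes that were higher had a median difference of 0.21 and those that were lower of -0.41, with a median SE of 0.076 over all genes. The sperm-poor libraries lay above every other library in all 3 strains for 1037 genes (8.82%) and below them for 1509 (12.8%).

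The counts depended on wt replicate 3 and on scaling. Without wt replicate 3, 361 genes were higher and 1201 were lower, and leaving out *age-1; gas-1* replicate 2 gave 1101 higher genes. Median-of-ratios rescaling shifted the median of all genes by 0.11 and gave 4350 higher and 1401 lower genes, quantile normalization gave 2530 and 1635, and rescaling to the sum without the sperm families gave 1216 and 2474. Small differences in either direction, such as those of oocyte and respiratory-chain genes, are therefore relative to the FPKM scale.

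The genes of sperm formation were the lowest of all, also outside the families that chose the libraries. Of 22 further sperm genes measured, 17 were lower and 2 higher, with a median difference of -2.70 against 0.00 over all genes. The lowest gene was *sss-1*, of a sperm-specific family (chromosome IV, 9892739 to 9893749 of WBcel235). It was at 57.4, 53.7, 54.8 and 24.8 FPKM in the other wt libraries and at 0.596 in the sperm-poor one. In *gas-1* mutants it was at 15.1, 14.4, 23.2 and 15.3 FPKM against 3.48, and in the double mutant at 34.8, 29.9 and 36.8 against 4.34 and 4.00. The groups did not overlap in any strain, and the difference was -3.64 ± 0.46 (SE). *ssq-4*, of another sperm-specific family, was at 65.5, 65.2, 70.7 and 31.2 FPKM in the other wt libraries against 0.861, at 13.5, 14.8, 18.2 and 13.7 against 2.75 in *gas-1*, and at 28.6, 20.0 and 32.1 against 3.35 and 4.42 in the double mutant.

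Genes for several steps of sperm formation and function were lower together. *gsp-3*, a phosphatase made in sperm, differed by -3.12 ± 0.35, and was at 4.34 to 10.2 FPKM in the other wt libraries against 0.217 in the sperm-poor one. *htas-1* and *spch-1*, which encode a histone variant and a basic protein of sperm chromatin, differed by -3.01 ± 0.36 and -3.10 ± 0.31. *comp-1*, known for sperm competition, differed by -2.01 ± 0.33, and *fer-1*, a dysferlin needed for membrane fusion in maturing sperm, by the smaller -1.15 ± 0.19. *nspd-10*, of a nematode peptide family made in sperm, differed by -3.24 ± 0.38 and *gipc-1* by -3.33 ± 0.37. The Argonautes of the sperm small RNA pathway, *alg-3* and *alg-4*, were both lower, by -2.79 ± 0.27 and -2.85 ± 0.26. *alg-4* was at 0.395 FPKM against 3.96 to 9.32 in wt, 0.871 against 3.38 to 5.28 in *gas-1*, and 1.05 and 1.17 against 6.40 to 8.24 in the double mutant. The sperm-poor libraries were below all others of their strain for each of these genes. The 2 higher genes of the list were the ubiquitin-adaptor genes *ubxn-1* and *ubxn-2*, at 0.18 ± 0.05 and 0.14 ± 0.03, and *ubxn-1* was at 22.6 FPKM in the sperm-poor *gas-1* library against 16.96 to 19.9 in the others.

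Genes that set germ cell fate or act in meiosis were mostly not lower. Of 21 germline sex-determination genes, 3 were higher and none lower by limma (median 0.04; 1 was lower at an unadjusted p under 0.05), and the 14.3% higher is near the 14.5% of all genes. None was higher without wt replicate 3 and 11 were after median-of-ratios rescaling. *tra-2*, which promotes the female fate, differed by 0.21 ± 0.06. *gld-1*, an RNA-binding regulator of germ cells, differed by 0.00 ± 0.05 and was at 2468 FPKM in the sperm-poor wt library against 2451 to 2653. Of 41 meiosis genes, 4 were higher (9.76%, against 14.5% of all genes) and 1 lower (2.44%, against 18.2%), with a median of 0.01. After median-of-ratios rescaling, 21 were higher. *dsb-2*, needed for meiotic DNA breaks, differed by 0.16 ± 0.03, and *him-3*, of the chromosome axis, by -0.14 ± 0.04. Fewer cells of a type and less RNA per cell cannot be told apart in libraries of whole animals, so the loss of sperm transcripts gives no count of sperm.

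**Figure D2:**
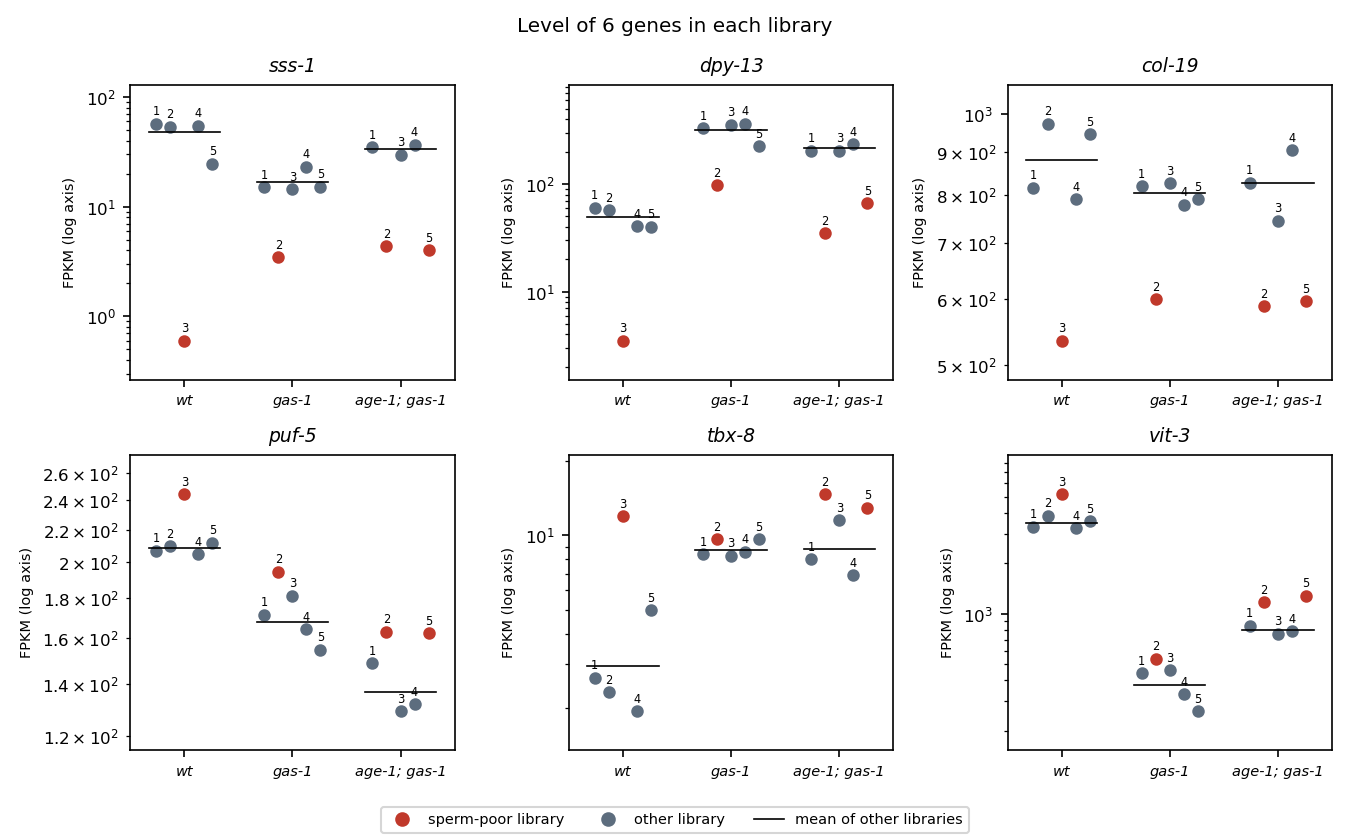
FPKM (log axis) of 6 genes in each of 15 libraries, with the replicate number above each point, sperm-poor libraries in red and a line at the mean of the strain's other libraries. The sperm gene *sss-1* and the collagen gene *dpy-13* lie several-fold lower in the red libraries, *col-19* lies lower by 0.53 on the log2 scale, *puf-5* and *vit-3* lie above the other libraries of each strain, and *tbx-8* is highest above them in wt.

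Sperm genes are known to be rare on the X chromosome, and the strongly lower genes were rare there as well. Of 1655 tested genes on X, 25 were at least 2-fold lower (1.51%), against 3.27% on chromosome III, 3.88% on V, 4.79% on II, 5.99% on I and 8.34% on IV. Genes that were lower by any amount were not rarer on X, with 21.99% of its genes against 13.9% to 21.01% on the autosomes. Families by name that stood near the sperm genes, chosen after their values were seen, were *nsph* with 4 of 5 members lower (median -3.25), *msrp* with 4 of 5 (median -2.82) and the kinase family *ttbk* with 4 of 5 (median -2.01). Among single genes of other lists, the T-box gene *tbx-34* differed by -3.25 ± 0.30, the insulin-like gene *ins-37* by -2.31 ± 0.23 and the fatty acid elongase gene *elo-8* by -2.56 ± 0.26, and in each the sperm-poor libraries were below all others of their strain. *tbx-34* stood on the list of embryonic patterning factors, and was its only lower member.

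Collagens of the cuticle were the second large group. Of 111 cuticle collagen genes measured, 90 were lower, 6 were higher and 15 did not pass, with a median of -1.45, and 88 of the 111 were below all other libraries in every strain. All 9 measured collagens of the adult cuticle were lower (median -2.09). These counts hardly moved without wt replicate 3, with 88 of the 111 and all 9 lower. *dpy-13*, whose loss makes short, stout animals, lies on chromosome IV (4235614 to 4236710). It was at 60.6, 56.9, 40.5 and 40.1 FPKM in the other wt libraries against 3.49 in the sperm-poor one, at 332.4, 357.1, 365.4 and 225.5 against 97.9 in *gas-1*, and at 205 to 236 against 35.05 and 66.6 in the double mutant. Its difference was -2.48 ± 0.28, and it was higher in *gas-1* animals than in wt in either set of libraries.

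Blister and roller collagens followed *dpy-13*. *bli-1* and *bli-2*, whose proteins build the struts between the cuticle layers of the adult, differed by -1.61 ± 0.25 and -2.59 ± 0.31. *bli-2* was at 1.02 to 2.61 FPKM in the other wt libraries against 0.0295, at 9.81 to 16.3 against 3.38 in *gas-1*, and at 6.75 to 8.89 against 1.24 and 2.28 in the double mutant. *bli-6* differed by -2.09 ± 0.16, and *rol-6*, listed at 0 in the sperm-poor wt library and at 0.317 to 0.701 FPKM in the other wt libraries, was at 0.962 against 3.20 to 5.31 in *gas-1*. *col-12* differed by -2.45 ± 0.25, *col-133* by -2.68 ± 0.30 and *col-62* by -1.94 ± 0.19. *col-19*, the adult-specific collagen on X, behaved unlike these: it stayed abundant, at 535 FPKM against 789 to 973 in wt, 600 against 778 to 826 in *gas-1* and 588 and 596 against 744 to 903 in the double mutant, a difference of -0.53 ± 0.07. *bli-1*, *bli-2*, *bli-6* and *rol-6* had FPKM of 0.108 to 45.9 in the other libraries and *col-19* of 744 or more.

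A few collagens moved in the opposite direction. *col-74* (chromosome II, 5830374 to 5832022) had the largest positive difference under the rule for named genes, 1.71 ± 0.50. It was at 0.0212 to 0.072 FPKM in the other wt libraries against 0.242, at 0.0106, 0.0125, 0.396 and 1.11 against 1.13 in *gas-1*, and at 2.45, 4.09 and 2.33 against 9.63 and 10.003 in the double mutant. The level in *gas-1* replicate 5, which was not sperm-poor, nearly equalled that in the sperm-poor library of its strain. *col-165* and *col-121* differed by 1.74 ± 0.56 and 1.45 ± 0.51, and *dpy-17* by 1.12 ± 0.36. For these 3 genes *gas-1* replicate 5 was above the sperm-poor *gas-1* library, at 2.78, 15.4 and 24.3 FPKM against 1.82, 8.52 and 14.9. None of the 6 higher collagens passed without wt replicate 3. Of 5 measured collagens of the cuticle furrows, which are made early in each moult cycle, *dpy-8* was lower at -1.06 ± 0.15 and 4 did not pass, while 4 of the 5 were higher without *gas-1* replicate 2 or with array weights. *dpy-7* was among the latter, with 3.08 FPKM against 0.489 to 1.13 in wt, 5.72 against 6.71 to 14.2 in *gas-1*, and 20.7 and 16.407 against 8.39 to 10.8 in the double mutant.

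Other genes of cuticle-forming tissues followed the collagens in part. Of 38 hedgehog-related and patched-related genes, secreted or membrane proteins of cuticle-forming cells, 14 were lower and 2 higher (median -0.20). Their shares were 36.8% and 5.26%, where 18.2% of all genes were lower and 14.5% higher. *grl-16* was at 3.97 to 6.05 FPKM in the other wt libraries against 0.358, at 18.6 to 32.6 against 9.22 in *gas-1*, and at 15.8 to 19.6 against 4.76 and 6.86 in the double mutant (difference -2.13 ± 0.27). *grd-10* differed by -1.28 ± 0.20 and *wrt-8*, at 2.13 FPKM or less in every library, by -2.07 ± 0.27. Of 18 astacin proteases, some of which shed the old cuticle, 9 were lower (50%) and none higher (median -0.43, and 7 lower without wt replicate 3). Among 45 *abu* and *pqn* genes, many of them glutamine- and asparagine-rich secreted proteins of the pharyngeal cuticle, 19 were lower (42.2%) and 11 higher (24.4%). The 2 families differed. All 6 *abu* genes were lower (median -1.06), whereas of 39 *pqn* genes 13 were lower and 11 higher (median 0.06). *pqn-54* differed by -1.71 ± 0.21. The median of the 45 genes was -0.11 and changed sign with scaling.

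**Figure D3:**
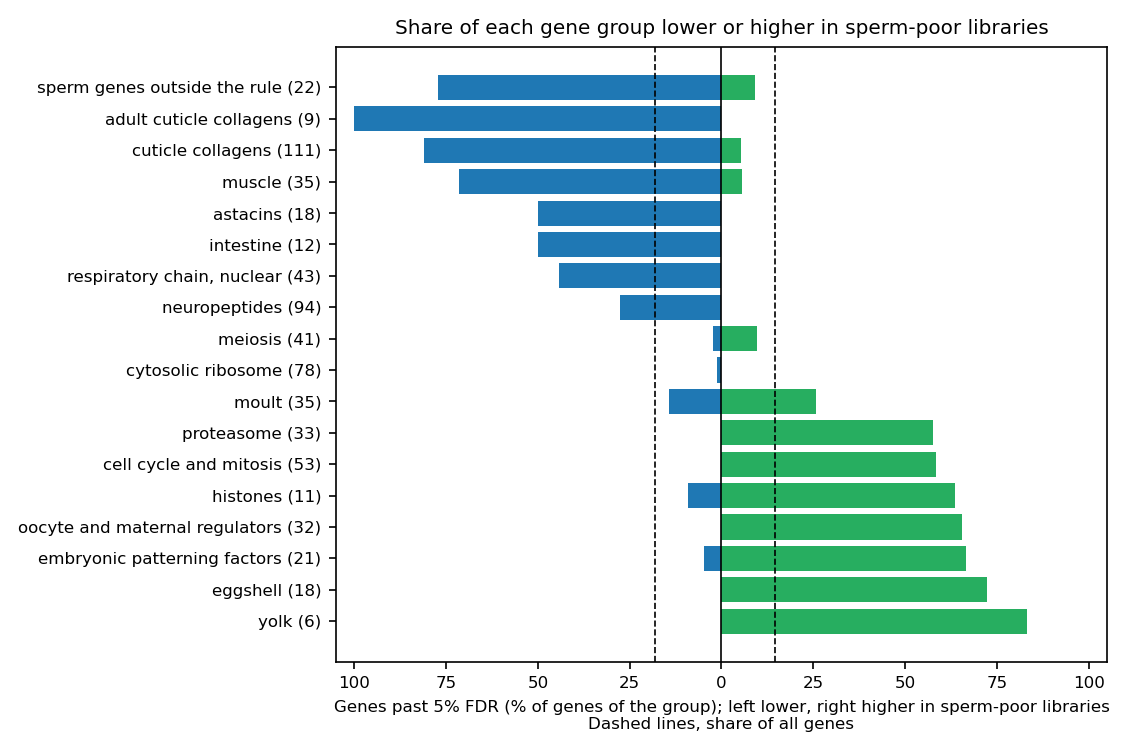
Share of each gene group that passed a 5% false discovery rate in either direction (limma), in % of the genes measured, whose number stands in parentheses. Dashed lines mark the share over all genes, 18.2% lower and 14.5% higher. Sperm genes, collagens and muscle genes reach far past the left line, and oocyte, eggshell, yolk, cell-cycle and embryonic groups far past the right line.

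The genes of the moulting cycle itself did not follow the collagens as a group. Of 35 moult genes, 9 were higher (25.7%, against 14.5% of all genes) and 5 lower (14.3%, against 18.2%), with a median of 0.08. Of the 35, 1 lay above and 2 lay below all other libraries in every strain, where 8.82% and 12.8% of all genes did. Among the higher ones were apical matrix genes that the embryonic epidermis is also known to use. *noah-1*, *noah-2*, *fbn-1*, *sym-1* and *let-4*, which encode such matrix proteins, differed by 0.93 ± 0.33, 0.97 ± 0.32, 1.03 ± 0.33, 1.08 ± 0.36 and 0.87 ± 0.28. *fbn-1* was at 13.6 FPKM in the sperm-poor wt library against 1.58, 2.72, 2.14 and 5.86 in replicates 1, 2, 4 and 5, and at 42.2 and 34.2 against 17.6 to 26.9 in the double mutant. In *gas-1* it was at 18.8, inside the 14.7 to 21.98 of the other libraries, so that the difference came from wt and the double mutant. None of the 9 higher genes passed without wt replicate 3. *nhr-25*, a nuclear receptor of epidermal cells in embryos and larvae, was higher at 0.83 ± 0.25 and did not overlap in any strain, with 139 against 29.5 to 82.1 FPKM in wt, 177 against 147 to 170 in *gas-1* and 294 and 246 against 124 to 207 in the double mutant. *nhr-23*, which drives the larval moults, differed by 0.04 ± 0.06 and was at 39.1 FPKM against 37.9 to 39.6 in wt.

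Transcripts of oocytes were higher by small amounts. Of 32 oocyte and maternal regulators, 21 were higher and none lower, with a median of 0.16 (0.25 in wt, 0.17 in *gas-1* and 0.09 in the double mutant), and 13 of them lay above all other libraries in every strain. *puf-5*, an RNA-binding translational regulator of oocytes (chromosome II, 8575541 to 8577787), was at 207, 209, 205 and 212 FPKM in the other wt libraries against 244. In *gas-1* it was at 172, 181, 164 and 155 against 194, and in the double mutant at 149, 129 and 132 against 163 and 162, a difference of 0.24 ± 0.04. *pos-1*, for a maternal protein of the early embryo, differed by 0.28 ± 0.06, *oma-2*, which acts in oocyte maturation, by 0.23 ± 0.06, and the yolk receptor gene *rme-2* by 0.18 ± 0.04. With wt replicate 3 left out, 2 of the 32 were higher, and the lowest median over rescalings and left-out libraries was 0.05.

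Eggshell and yolk genes had the same sign. Of 18 eggshell genes 13 were higher and none lower (median 0.16; 5 without wt replicate 3). *perm-2*, needed for the permeability barrier of the eggshell, differed by 0.37 ± 0.05, with 702 FPKM against 453 to 540 in wt, 595 against 486 to 542 in *gas-1*, and 837 and 858 against 609 to 691 in the double mutant. *cbd-1*, for a chitin-binding protein, and the chitin synthase gene *chs-1* differed by 0.22 ± 0.05 and 0.17 ± 0.06. Of 6 yolk protein genes 5 were higher (median 0.39; 3 without wt replicate 3). *vit-3* was at 5180 FPKM against 3249 to 3852 in wt, 538 against 261 to 458 in *gas-1* and 1175 and 1278 against 760 to 845 in the double mutant, a difference of 0.59 ± 0.11. *vit-2*, the most abundant yolk transcript, differed by 0.25 ± 0.08, *vit-1* by 0.34 ± 0.12 and *vit-6*, which did not pass, by 0.10 ± 0.06. *vit-3* is one of several close copies that can share reads. Yolk levels also differed between strains, in a direction that depended on the gene. The *vit-3* level of wt was several times that of *gas-1* in both sets of libraries. *vit-2* had the opposite order, with means of 33069 FPKM in the other wt libraries, 52979 in those of *gas-1* and 80744 in those of the double mutant.

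The larger positive differences were in genes of the early embryo, and they were uneven between strains. Of 21 embryonic patterning factors measured, 14 were higher and 1, *tbx-34*, was lower (median 0.46), and 11 lay above all other libraries in every strain. *tbx-8*, a T-box gene of embryonic body shape (chromosome III, 10347349 to 10349740), was at 2.65, 2.32, 1.94 and 4.96 FPKM in the other wt libraries against 11.97. In *gas-1* it was at 8.41, 8.28, 8.58 and 9.63 against 9.67, and in the double mutant at 7.98, 11.5 and 6.91 against 14.7 and 12.9. The difference of 0.92 ± 0.28 was thus made of 2.07 in wt, 0.15 in *gas-1* and 0.68 in the double mutant. *tbx-9*, its close relative, differed by 0.33 ± 0.06, the muscle-fate gene *hlh-1* by 0.46 ± 0.14, the mesodermal homeobox gene *ceh-51* by 0.84 ± 0.22 and the neuronal homeobox gene *ceh-36* by 1.09 ± 0.27. Without wt replicate 3, 2 of the 21 were higher. The median level of the whole group was not separate in the double mutant, at 2.95 and 2.66 on the log2 scale in the sperm-poor libraries and 2.81 to 2.90 in the others.

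Early embryonic genes outside that group had the same pattern, and several were named after their values were seen. *epg-2* and *sepa-1* encode adaptors for the autophagy of germ granules in embryos. *epg-2* (chromosome I, 2300086 to 2302813) was at 85.7, 112.2, 98.9 and 203 FPKM in wt against 479, at 312, 278, 321 and 375 in *gas-1* against 414, and at 347, 405 and 280 in the double mutant against 573 and 479, a difference of 0.95 ± 0.25. *sepa-1* differed by 0.87 ± 0.22, the early embryonic transcripts *vet-6* and *pes-10* by 0.95 ± 0.20 and 0.80 ± 0.23, and *zeel-1*, for an antidote protein made by the embryo, by 0.88 ± 0.27. *hch-1*, which encodes the hatching enzyme, was at 4.6001 FPKM in the sperm-poor wt library against 0.139, 0.343, 0.403 and 1.95, at 22.999 and 19.2 against 8.27 to 11.9 in the double mutant, and at 10.96 inside the 6.30 to 16.45 of the other *gas-1* libraries. Of 15 *sdz* genes, first found as early zygotic transcripts, 8 were higher and none lower (median 0.67), and none passed without wt replicate 3.

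Families of ubiquitin-ligase parts, grouped by name after their values were seen, were also higher. Of 47 *fbxb* genes, which encode F-box proteins, 29 were higher and none lower (median 0.69), and of 26 *fbxc* genes 11 were higher and none lower (median 0.58). Of 19 *skr* genes, which encode Skp1-related partners of F-box proteins, 12 were higher and none lower (median 0.40). *fbxb-91* differed by 1.01 ± 0.28, *skr-9* by 0.94 ± 0.24 and *skr-8* by 0.92 ± 0.24, while *fbxb* and *skr* genes include close copies that may share reads. Of 37 *ceh* homeobox genes, 18 were higher and 3 lower (median 0.26).

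**Figure D4:**
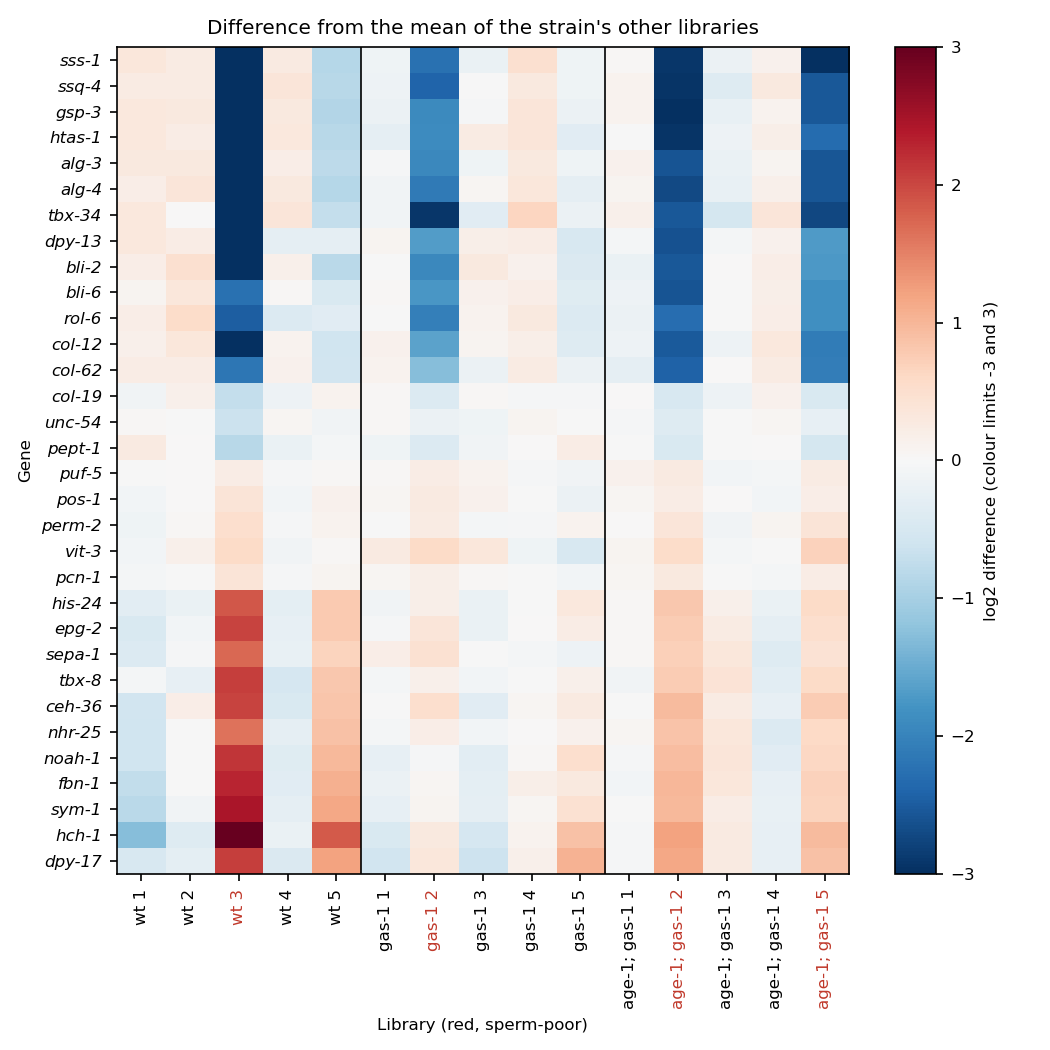
Difference of log2(FPKM + 0.1) from the mean of the strain's other libraries for 32 genes (rows) in 15 libraries (columns, sperm-poor libraries in red), with colours limited to -3 and 3. The sperm rows and most collagen rows are blue in all 4 sperm-poor columns. The row of *col-19* is a paler blue, and that of *dpy-17*, a collagen gene with a positive difference, does not follow them. The embryonic rows are red in wt replicate 3, paler red in wt replicate 5 and *age-1; gas-1* replicates 2 and 5, and near white in *gas-1* replicate 2.

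Genes of dividing cells were higher by amounts like those of the oocyte group. Of 53 cell-cycle genes 31 were higher and none lower (median 0.16; 12 without wt replicate 3). *icp-1* and *bir-1*, subunits of the chromosomal passenger complex, differed by 0.28 ± 0.04 and 0.30 ± 0.04, and the replication genes *pcn-1* and *mcm-7* by 0.27 ± 0.04 and 0.26 ± 0.05. Of 11 measured histone genes 7 were higher and 1 lower, although most histone mRNAs lack a long poly(A) tail and poly(A) selection leaves few of them. *his-24*, a linker histone gene, was at 88.2 FPKM against 19.6 to 42.3 in wt and 107 and 90.9 against 53.2 to 67.3 in the double mutant (difference 0.88 ± 0.24), and *his-72*, for a replacement histone, differed by 0.31 ± 0.06. Of 33 proteasome genes 19 were higher and none lower (median 0.09; 7 without wt replicate 3).

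Muscle and intestinal genes were lower by small amounts, and other somatic groups were lower in part or near the shares of all genes. Of 35 muscle genes 25 were lower and 2 higher (median -0.30; 18 lower without wt replicate 3). The body-wall myosin gene *unc-54* was at 131 FPKM against 190 to 213 in wt, 169 against 176 to 203 in *gas-1* and 149 and 164 against 190 to 202 in the double mutant, a difference of -0.37 ± 0.06. The paramyosin gene *unc-15* differed by -0.34 ± 0.06 and the pharyngeal myosin gene *myo-1* by -0.58 ± 0.11. Of 12 intestinal genes 6 were lower and none higher (median -0.27), among them the peptide transporter gene *pept-1* at -0.57 ± 0.09, the intestinal actin gene *act-5* at -0.42 ± 0.06 and the intermediate filament gene *ifb-2* at -0.51 ± 0.10. The yolk genes, which the same tissue expresses, had the opposite sign. Of 94 neuropeptide genes 26 were lower and none higher (median -0.17), with 8 lower without wt replicate 3 and with 9 lower and 8 higher after quantile normalization. Of 19 neuronal genes 5 were lower and 2 higher, with 1 and none without wt replicate 3 and 11 lower without *age-1; gas-1* replicate 1, and the synaptotagmin gene *snt-1* differed by -0.46 ± 0.11. Of 28 *twk* potassium channel genes, a name family chosen after its values were seen, 15 were lower and none higher (median -0.29). Of 15 somatic gonad genes 6 were lower and 3 higher (median -0.21; 3 lower and none higher without wt replicate 3), and of 20 vulva and uterus genes 2 were lower and 4 higher (median 0.08). Over all genes 18.2% were lower and 14.5% higher. The shares were 40% and 20% for somatic gonad genes. They were 26.3% and 10.5% for neuronal genes and 10% and 20% for vulva and uterus genes, which in lists this small is near all genes. The FPKM scale is relative, so that a lower share of one tissue and a higher share of another cannot be told apart.

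Housekeeping groups gave a rough scale for these values. Of 78 cytosolic ribosomal protein genes 1 was lower and none higher (median -0.05). Their median was -0.21 in wt, 0.04 in *gas-1* and -0.003 in the double mutant. In wt this was near in size to the 0.25 of the oocyte and maternal regulators, with the opposite sign. The median over all strains ran from -0.09 to 0.06 with the processing and with a library left out. With the *msp* level as a continuous term over 15 libraries, 16 were lower. In the oocyte, eggshell, yolk, cell-cycle and proteasome groups no gene was lower by limma even at an unadjusted p under 0.05, and in the astacin, intestinal, neuropeptide and respiratory-chain groups none was higher at that level on the FPKM scale. Of 43 nuclear genes of the respiratory chain 19 were lower and none higher, with a median of -0.10 that became 0.00 after median-of-ratios rescaling, where 2 were lower and 1 higher. The *gas-1* transcript itself was at 95.7 FPKM in the sperm-poor wt library against 116 to 123, at 190 against 219 to 245 in *gas-1*, and at 212 and 204 against 220 to 234 in the double mutant, a difference of -0.22 ± 0.04. *age-1* did not pass, at 0.10 ± 0.07. The fc21 and hx546 alleles are not deletions, so their transcript levels check no label.

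The lower side of the pattern recurred in all 3 strains, and the higher side recurred in part. When the 200 genes with the lowest differences in wt alone were read in the other strains, all 200 were lower in *gas-1* (median -1.88) and all 200 in the double mutant (median -2.55), where 50.2% and 50.6% of all genes were. The 200 highest in wt had a median of 1.77 there, 0.19 in *gas-1*, with 171 above 0, and 0.56 in the double mutant, with 197 above 0. The 200 highest in *gas-1* had medians of 0.56 in wt and 0.33 in the double mutant, with 141 and 153 above 0. The 200 highest in the double mutant had medians of 1.06 in wt and 0.16 in *gas-1*, with 161 and 141 above 0. Among all genes 50.7% were above 0 in wt, 49.8% in *gas-1* and 49.4% in the double mutant. In *gas-1* the median was below 0 for the furrow collagens (-0.56, against 0.99 in wt and 0.76 in the double mutant) and the moult genes (-0.10, against 0.27 and 0.16). The libraries of each strain were grouped by the same *msp* levels, so these readings describe how far the pattern recurs and do not test it. Genes at least 2-fold lower had a median of -3.23 in wt, -1.57 in *gas-1* and -2.15 in the double mutant.

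**Figure D5:**
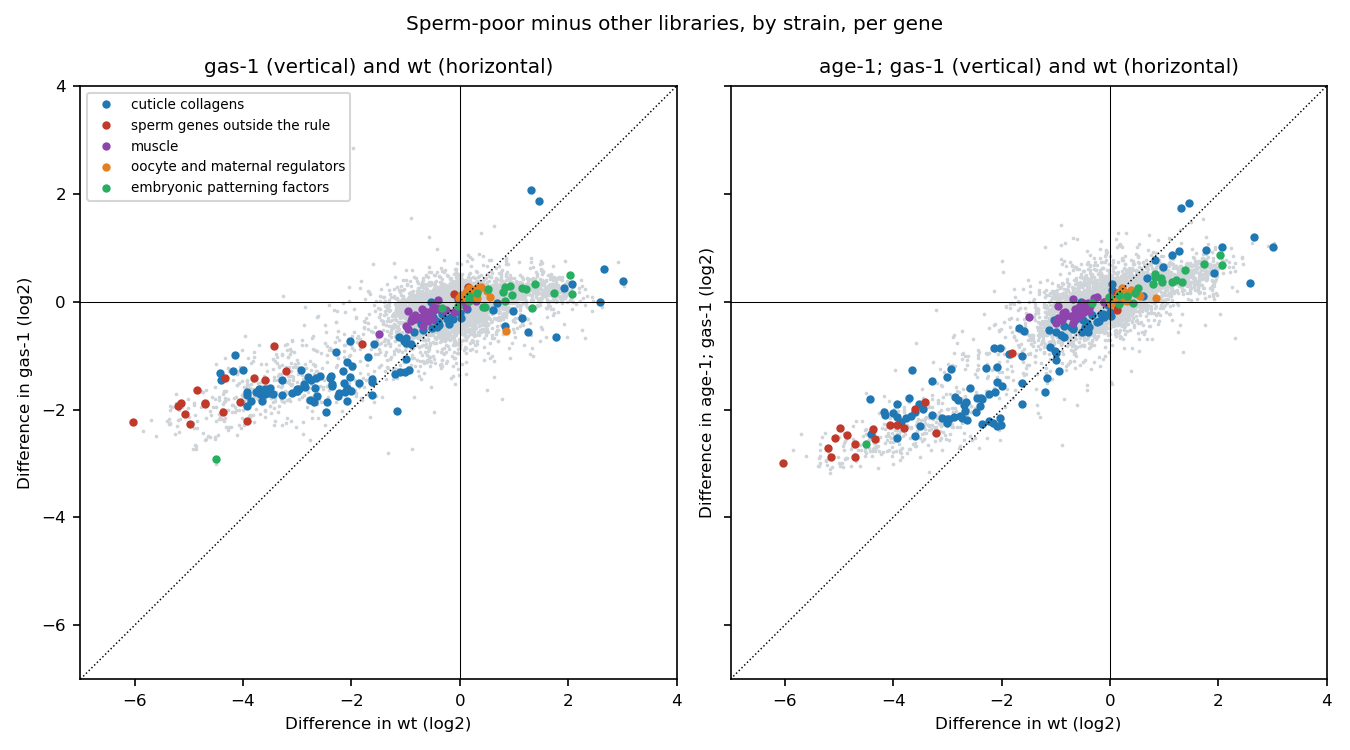
Difference per gene (log2, sperm-poor minus other libraries) in *gas-1* (left) and *age-1; gas-1* (right) on the vertical axis against wt on the horizontal axis, with all genes in grey, 5 groups in colour and a dotted line of equality. Most sperm and collagen genes lie in the lower left of both panels, mostly less low in either mutant than in wt. Most embryonic factors extend to the right, near 0 in *gas-1* and higher in the double mutant.

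The difference itself depended on strain for 177 genes in a limma test of the interaction (1.51% of genes tested), of which 132 were also lower, 4 also higher and 41 neither. Sperm genes led them: *sss-1* differed by -6.02 in wt, -2.23 in *gas-1* and -2.99 in the double mutant. This rests on 1 sperm-poor library each in wt and *gas-1*. The count was 19 with a pseudocount of 1 FPKM, 1304 without wt replicate 5, and 39 to 243 without any other library that can be left out.

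Among the 11 other libraries the *msp* level also varied, and since it is the value that chose the library sets, the following only describes them. Genes were fitted on the *msp* level within strain over these 11. Of the 2139 genes lower in sperm-poor libraries 67.2% were lower with less *msp* among the others, where 35.5% of all genes were, and of the 1700 higher genes 86.7% were higher, where 64.5% of all genes were. wt replicate 5 lay farthest from its strain's mean *msp* level among these libraries. In that library *sss-1* was at 24.8 FPKM against 53.7 to 57.4 in wt replicates 1, 2 and 4, *bli-2* at 1.02 against 2.06 to 2.61, *tbx-8* at 4.96 against 1.94 to 2.65 and *epg-2* at 203 against 85.7 to 112.2, in each case on the side of the sperm-poor library. The order differed for *col-19*, at 944 FPKM against 789 to 973, and *puf-5*, at 212 against 205 to 209.

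The sperm-poor libraries also bear on the comparisons between strains. With strain alone in the limma fit, 8068 genes differed between *gas-1* and wt (68.4%), 8913 between the double mutant and wt (75.6%) and 3878 between the mutants (32.9%). With the library set added to the fit these became 8896 (75.4%), 9476 (80.3%) and 5036 (42.7%), and with the 4 sperm-poor libraries left out 8712, 8998 and 3820. Of the 3878 genes that differed between the mutants with strain alone, 3864 did so with the library set in the fit and 3048 without the 4 libraries. The share of sperm-poor libraries was 1 of 5 in wt and in *gas-1* and 2 of 5 in the double mutant.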

How the data were processed

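FPKM values, as the authors deposited them, came 1 file a library and were made from stranded mRNA libraries of single-end reads. The submitters' processing notes name STAR 2.4.0h, beside Cufflinks 2.1.1, Cuffdiff, FastQC 0.10.1 and CASAVA 1.8.2, and give none of them a role. Genome build, annotation and strand setting: not given in the sources used here. Reads of antisense and overlapping genes may therefore be mixed. Coordinates are those of WBcel235, matched by identifier for 20179 of 20483 genes. The strain of each library came from the labels, and the library set from the *msp* levels.

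The filter kept 11796 genes that reached 1 FPKM in 4 or more of 15 libraries, of which 36 belong to the *msp*, *msd*, *ssp* and *spe* families and were left out of the counts. log2(FPKM + 0.1) was fitted with limma 3.58.1 in R 4.3.3 on strain and library set, with the mean-variance trend, and p-values were adjusted over all 11796 genes by the Benjamini-Hochberg procedure to 5% FDR. Members and gene lists were chosen with earlier results of these data known. Named genes are the 15 highest and 15 lowest whose libraries separate in every strain and that reach 5 FPKM, the 4 of each list with the smallest adjusted p, the 3 of each list furthest against its median, the strain genes, and 38 genes chosen after their values were seen. The labels do not say that libraries of one strain came from separate cultures, although the paper calls them biological replicates, so the fits measure only the spread between these libraries. The number of reads per library is unknown. The fit was tested on simulated data. Alternatives were pseudocounts of 1 and 0.5, no filter, a filter at 5 FPKM, 3 rescalings and quantile normalization, limma without trend, with robust estimation and with array weights, a replicate block, 1% FDR, a 2-fold minimum, the *msp* level as a continuous term, the double mutant alone, and each library left out.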

Additional observations from a re-analysis of the deposited data

Results flagged for a closer look

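In 32 of 321 groups of 4 libraries checked, for 107 genes and gene lists, 1 library stood far from the other 3, with a gap to its nearest neighbour that was most of the range. Chance gives about 1 in 20 for independent checks within 1 group. These checks were not independent, as many flagged items are sperm genes that vary together, and the sperm-poor libraries come from 3 strains. The number flagged is therefore a description only. The gap is given as a share of the range on the log2 scale. Among the other wt libraries, replicate 5 was the low one for sperm genes outside the *msp*, *msd*, *ssp* and *spe* families as a list (0.961), *sss-1* (0.922), *ssq-4* (0.902), *gsp-3* (0.966), *nspd-10* (0.963), *alg-3* (0.903), *alg-4* (0.871), *fer-1* (0.871), *htas-1* (0.907), *gipc-1* (0.971), *spch-1* (0.907) and the collagen *col-62* (0.866). The same library was the high one for *dpy-17* (0.884), *skr-9* (0.873), *fbxb-91* (0.962) and *his-24* (0.893).

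Among the other *gas-1* libraries, replicate 5 was the high one for *gas-1* (0.849) and the low one for *col-12* (0.851) and *grl-16* (0.895), replicate 4 was the high one for *sss-1* (0.877) and *elo-8* (0.885), and replicate 3 was the low one for *unc-15* (0.912).

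Among the 4 sperm-poor libraries, as differences from the mean of their strain's others, wt replicate 3 was the high one for the moult list (0.901), *tbx-9* (0.907) and *skr-8* (0.835), and the low one for *ssq-4* (0.844), *col-165* (0.856), *grd-10* (0.838), *snt-1* (0.954) and *ifb-2* (0.885). *age-1; gas-1* replicate 2 was the high one for the neuropeptide list (0.82901) and replicate 5 for *vit-3* (0.913).

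The difference between library sets varied with strain for 6 named genes in limma's interaction test, adjusted over all genes. They were *sss-1*, *ssq-4* and *nspd-10* (adjusted p = 0.0171 each), *gipc-1* (adjusted p = 0.0236), *grd-10* (adjusted p = 0.0358) and *grl-16* (adjusted p = 0.046). All 6 were lower in all 4 sperm-poor libraries, most so in wt replicate 3. For the sperm genes among them, this cannot be told apart from the *msp* levels that chose the libraries.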

How the results depend on the processing

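The numbers of genes higher and lower, 1700 and 2139, stayed within 1.5 times under pseudocounts of 1 and 0.5 FPKM, upper-quartile rescaling, rescaling without the sperm families, quantile normalization, limma without trend, with robust estimation and with array weights. The lower genes were 3225 with no filter, 1165 with a filter at 5 FPKM and 1401 after median-of-ratios rescaling, which gave 4350 higher. A replicate block gave 826 higher and 2103 lower, with 2541 calls shared. Same-numbered libraries correlated from -0.76 to 0.79 after removal of strain means, so the numbers do not pair them. At 1% FDR 509 were higher and 1235 lower, and with a 2-fold minimum 25 and 549. The *msp* level as a continuous term gave 2583 higher over 15 libraries, and 217 and 420 over the 11 others. The double mutant alone gave 580 and 1255. With each library left out, 361 to 1890 were higher and 1201 to 2202 lower, lowest without wt replicate 3, where 1512 calls were shared. Genes whose difference depends on strain numbered 177, and 19 with a pseudocount of 1 FPKM, 69 with no filter, 382 after median-of-ratios rescaling, 38 after quantile normalization, 0 with a replicate block (1127 at an unadjusted p under 0.05) and 39 to 1304 with a library left out; wt replicate 3 and *gas-1* replicate 2 could not be left out there. The cause of these shifts was not tested. Over the 11 other libraries, 3 named genes changed sign without passing, *gas-1* at 0.033, *col-19* at 0.061 and *ubxn-2* at -0.023. Counts between strains stayed within 1.5 times. Depth is unknown and limits low genes.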
